A study of Mus musculus with 6 samples.

Results

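The replication-dependent histone genes of the mouse were taken as the genes whose symbol begins with Hist1h, Hist2h, Hist3h or Hist4h. This rule found 67 of the 31053 genes in the count matrices, and at least 1 UMI (unique molecular identifier, 1 per captured molecule) of 65 of them was counted in the cells kept. They comprised 6 genes of linker histone H1, 18 of H2A, 18 of H2B, 12 of H3 and 13 of H4. On GRCm38, 54 of them lie on chromosome 13, 10 on chromosome 3, 2 on chromosome 11 and 1 on chromosome 6.

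Histones H2A, H2B, H3 and H4 form the core of the nucleosome, and H1 binds the DNA between nucleosomes. Most messengers of these genes end in a conserved stem-loop that the stem-loop binding protein recognises, and carry no poly(A) tail. They accumulate when DNA is replicated and are degraded when replication ends, although some of the genes are known to give polyadenylated messengers as well, mostly in cells that have left the cycle.

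The counts came from single-cell RNA sequencing of material that the labels name as YUMM2.1, a mouse melanoma line, captured with a droplet kit for 3' ends of polyadenylated RNA. The labels do not say whether the cells were cultured or taken from tumours. The genotypes compared were Empty vector and Bmal1 WT, the latter named for wild-type Bmal1, the circadian transcription factor encoded by Arntl, and no age, strain or further treatment is given. Each group was 1 library of 3 replicates marked with hashtag antibodies (h1, h7 and h8 for Empty vector, h3, h5 and h9 for Bmal1 WT), so group and droplet channel cannot be told apart.

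After filtering, the Empty vector library held 3978 cells with a median of 5094 UMIs and the Bmal1 WT library 2386 cells with a median of 7571 UMIs. In melanoma-like cells, Arntl stood at 54.2 to 120.3 CPM (UMIs of a gene for each 1000000 UMIs of the cells summed) in the Empty vector replicates and at 50.1 to 60.8 in the Bmal1 WT replicates, which overlapped, and reads at the 3' end need not capture a transgene. Arntl was chosen for this check after its values were seen. Cell classes were set by 8 marker genes each, and the class with the largest share of detected markers was taken. The melanoma-like class (571 cells) had UMIs of 8 of its 8 markers, detected in a median of 67.0% of its cells. The summed markers of the class stood at 1887 CPM. Markers of other classes were present too: fibroblast-like markers at 229 CPM (1 of them in 52.2% of the cells), NK-cell-like at 79.5 CPM (1 in 27.8%), endothelial-like at 72.5 CPM, and the T-cell-like, dendritic-cell-like, macrophage- or monocyte-like and B-cell-like markers between 1.07 and 4.68 CPM. The part of such RNA in the melanoma-like results was not tested. The immune class (4722 cells) joined the T-cell-like, NK-cell-like, macrophage- or monocyte-like, dendritic-cell-like and B-cell-like cells.

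The stem-loop that ends these messengers was read from the GENCODE M21 transcripts on GRCm38, by a search for GG, any 3 bases, TTTT, any base, A, any 3 bases and CC on the transcript strand within 300 bases after the coding end. A match was found in 43 of the 67 genes (64.2%). Of the 20981 protein-coding genes searched, histone genes included, 68 (0.324%) had a match, and 0.0858% held the reverse complement of the motif. Another 970 genes with too short a window were left out of the 20981, whereas the 67 include such genes. The sites of 9 abundant genes are shown because they span the 5 histone classes that have one and every pattern described below. Capitals mark the stem-loop and lower case its flanks, in transcript direction.

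Hist1h2ap: aaaaaGGCTCTTTTCAGAGCCatc
Hist1h2ae: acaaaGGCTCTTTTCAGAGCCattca
Hist3h2a: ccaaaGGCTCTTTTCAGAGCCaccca
Hist1h1c: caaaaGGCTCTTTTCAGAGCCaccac
Hist1h1e: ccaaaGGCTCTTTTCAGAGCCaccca
Hist1h2be: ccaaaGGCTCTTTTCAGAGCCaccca
Hist1h3c: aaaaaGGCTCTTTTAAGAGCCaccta
Hist1h4d: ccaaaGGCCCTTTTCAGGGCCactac
Hist1h4i: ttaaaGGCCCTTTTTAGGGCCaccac

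The stem-loop of Hist1h2ap lies at chr13:21833029-21833044 on the minus strand, 3 bases before the annotated transcript end. That of Hist1h2ae lies at chr13:23570668-23570683 (minus strand) and that of Hist3h2a at chr11:58955172-58955187 (plus strand). The site of Hist1h1c is chr13:23739512-23739527 (plus strand), and its annotated transcript runs on for 840 bases after it. The other sites are chr13:23621782-23621797 for Hist1h1e, chr13:23585531-23585546 for Hist1h2be and chr13:23745047-23745062 for Hist1h3c (minus strand), chr13:23581950-23581965 for Hist1h4d (plus strand) and chr13:22040966-22040981 for Hist1h4i (minus strand). All lie in the 3' untranslated part of the transcript. Both H4 sites shown share a stem that differs from the one printed for the H1, H2A, H2B and H3 genes.

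Of the 24 genes without a match, 15 have an annotated transcript that stops at the stop codon, so the window held no sequence to search, Hist1h1b among them. The other 9 have longer annotated ends with no match, among them Hist1h2bc and Hist2h2be (H2B) and Hist1h1a (H1). A missing match says only that these letters are not in the annotated window. Annotated genes overlap 7 of the 67 on the same strand, as Hist1h2be does Hist1h1e and Trim17 does Hist3h2a, and 21 on the opposite strand. The coding sequences of a class are near-copies of each other, and it is not given how reads that fit several copies were counted, so the values of single genes carry that uncertainty.

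The 67 genes together gave 45553 UMIs in the kept cells, 629 CPM. A few genes held most of them. Hist1h2ap (H2A, 7616 UMIs), Hist1h2bc (H2B, 7130 UMIs) and Hist1h1c (a linker histone, 6730 UMIs) made up 47.1% of the total, and the 12 most abundant genes 80.6%. At the other end, 25 genes had 1 to 99 UMIs, and Hist1h2aa and Hist1h2ba, both known from the testis, had 0. H2A genes held 32.4% of the UMIs, H1 genes 28.5%, H2B genes 21.3%, H4 genes 11.7% and H3 genes 6.08%. The levels are not per length, but a 3' kit counts each captured molecule once whatever its length. Messengers without a poly(A) tail need not be captured, so these shares are not those of all histone messengers in the cells.

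**Figure D1:**
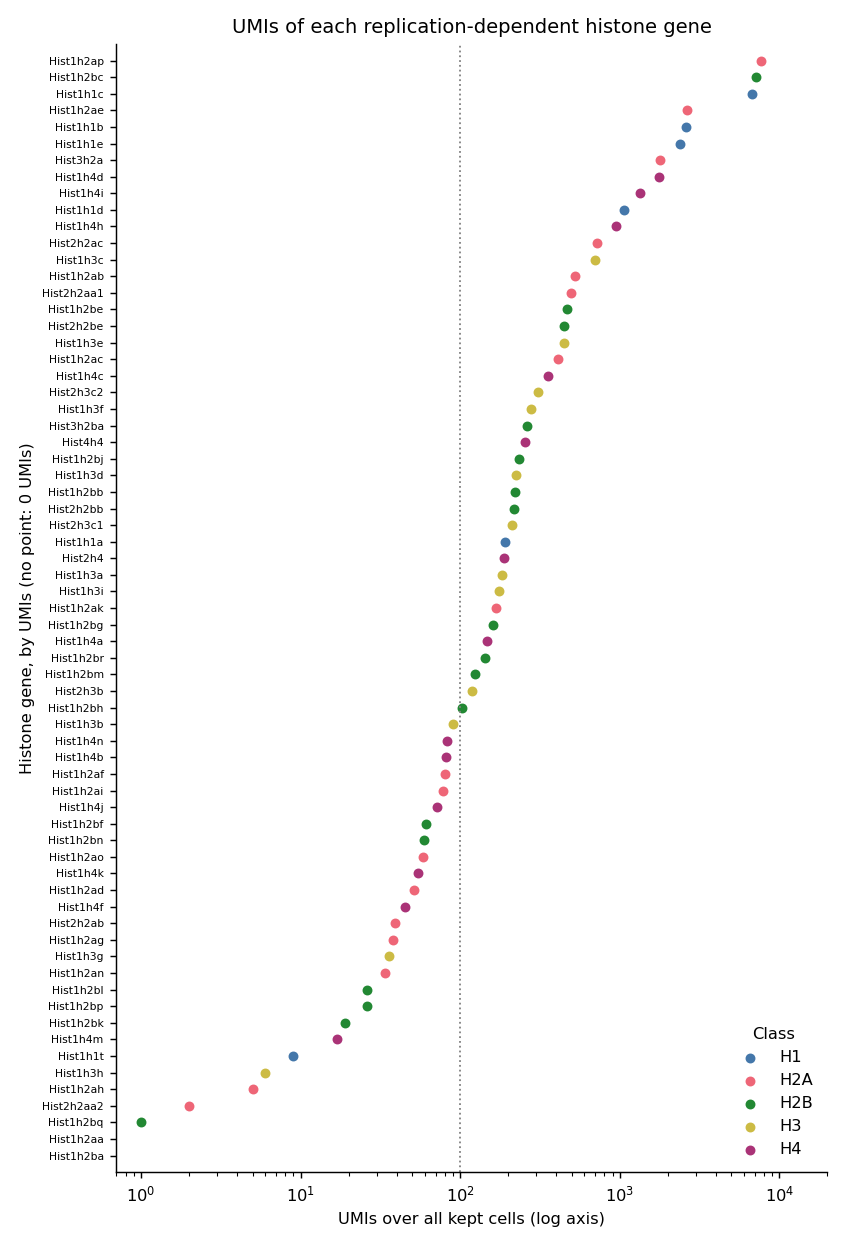
UMIs over all kept cells (log axis) of each of the 67 histone genes, ordered by UMIs and coloured by histone class, with a dotted line at 100 UMIs. Of the 67 genes, 40 lie at or above 100 UMIs, 10 reach 1000, and 2 had no UMI and so no point.

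A UMI of at least 1 of these genes was found in 56.0% of the Empty vector cells (95% Clopper-Pearson interval 54.4 to 57.5) and in 72.0% of the Bmal1 WT cells (70.2 to 73.8). These intervals cover counting error only. With each cell of at least 3000 UMIs thinned to 3000, the shares were 42.8% and 52.5%, with 1139 and 529 shallower cells left out. No class was gated that should lack histone messengers, so the share from free RNA was not tested. The shares of cells with a histone UMI by class were 84.8% in melanoma-like, 52.8% in T-cell-like, 61.1% in NK-cell-like, 61.8% in macrophage- or monocyte-like, 68.2% in dendritic-cell-like and 79.4% in fibroblast-like cells. After thinning they were 66.8%, 44.0%, 46.8%, 39.2%, 47.0% and 44.3%, so the spread between the non-melanoma classes narrowed, and the melanoma-like class stayed the highest of the 6.

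Summed over both libraries, the histone genes stood at 792 CPM in melanoma-like and 573 CPM in immune cells. Among the immune classes the level was 860 CPM in T-cell-like cells, followed by dendritic-cell-like (548), NK-cell-like (503) and macrophage- or monocyte-like cells (331), and the 10 B-cell-like cells, with 22 histone UMIs, stood at 755 CPM. The replicates did not keep this order: dendritic-cell-like cells ranged from 193 CPM in Empty vector h8 to 1081 CPM in Empty vector h7, where 2 cells held 73.3% of the histone UMIs. In T-cell-like cells of Empty vector h8, 2 cells held 46.1% of them. The ranges of T-cell-like (367 to 1172 CPM), NK-cell-like (265 to 960.0 CPM), macrophage- or monocyte-like (248 to 462 CPM) and dendritic-cell-like cells all overlapped.

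The genes differed in where they were found. Hist1h2bc stood at 558, 281 and 257 CPM in the melanoma-like cells of Empty vector h1, h7 and h8, and at 95.2, 255 and 144 CPM in Bmal1 WT h3, h5 and h9. In immune cells the same replicates held 15.2, 15.9, 11.0, 24.0, 27.4 and 12.9 CPM. The melanoma-like level was the higher in 6 of 6 replicates, with no overlap. Fibroblast-like cells also carried Hist1h2bc at 101 CPM. Empty vector h7 had only 6 melanoma-like cells.

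Hist1h1c was spread more evenly than Hist1h2bc: 107 CPM in melanoma-like, 57.8 in T-cell-like, 80.8 in NK-cell-like, 105 in macrophage- or monocyte-like, 89.6 in dendritic-cell-like and 73.6 in fibroblast-like cells. It was also found in the most cells, 27.7% of all. Hist1h2ap, by contrast, stood at 267 CPM in T-cell-like and 32.4 CPM in macrophage- or monocyte-like cells, and was found in 10.4% of all cells.

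Between melanoma-like and immune cells of the same replicates, 33 histone genes passed the minimum of 100 UMIs, 8 were higher and 13 lower in melanoma-like cells (edgeR quasi-likelihood test, adjusted p under 0.05). Of all 11698 genes tested, 64.4% were called, 33.3% higher and 31.1% lower, so a share of 63.6% called was close to the background. The filter keeps a gene that is high in only 1 of the classes, so the share says nothing about the genes that did not pass. The 5 largest rises were those of Hist2h3c2 (log2 fold change 3.90 ± 0.63, SE), Hist1h2bc (3.76 ± 0.38), Hist1h3d (1.84 ± 0.49), Hist1h2ac (1.52 ± 0.33) and Hist2h2be (1.22 ± 0.27).

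The largest falls were those of Hist1h1a (-3.20 ± 0.45), Hist1h3a (-2.004 ± 0.42), Hist1h3i (-1.67 ± 0.42), Hist1h2bj (-1.57 ± 0.39) and Hist1h1b (-1.26 ± 0.40). Hist1h1a, a linker histone gene, had 7 UMIs in the melanoma-like replicates and 135 in the immune ones. Hist2h3c2 rested on few UMIs, 173 in the melanoma-like replicates and 23 in the immune ones, and 102 of the 173 came from Empty vector h8. Without Empty vector h8, 11 genes were called in place of 21. DESeq2 scaling moved the median of all genes from 0.04 to -0.19 and gave 6 higher and 15 lower genes.

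Lymphoid cells (T-cell-like and NK-cell-like) were also compared with myeloid cells (macrophage- or monocyte-like and dendritic-cell-like) of the same replicates. Of 28 genes tested, 18 were higher and 3 lower in lymphoid cells (edgeR, adjusted p under 0.05), against 74.2% of all genes called, 47.6% higher and 26.6% lower. The share of 75.0% called was close to that background. Without Bmal1 WT h3, 13 were called, 10 higher and 3 lower. Those with the largest fold changes were Hist1h2bj (2.16 ± 0.45), Hist1h2ap (1.66 ± 0.54), Hist1h2ak (1.51 ± 0.47), Hist2h2bb (1.35 ± 0.41) and Hist1h4h (1.32 ± 0.33). The 3 lower genes were Hist1h2bc (-0.72 ± 0.15), Hist1h1c (-0.68 ± 0.14) and Hist3h2a (-0.67 ± 0.16). The median of all genes lay at 0.30 with total UMIs and at 0.04 with TMM scaling, under which 13 genes were higher and the same number, 3, lower. A Mki67 or Top2a UMI was found in 28.8% of T-cell-like and 18.1% of NK-cell-like cells, and in 6.13% of macrophage- or monocyte-like and 19.8% of dendritic-cell-like cells. Its part in this comparison was not tested.

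Mki67 and Top2a mark dividing cells: the first encodes a chromosome-coating antigen of proliferating cells and the second the topoisomerase that untangles replicated DNA. Their UMIs were summed in each cell and set against the histone genes. In immune cells the histone level was flat over the low counts and stepped up at the top. It was 229 CPM in the 3819 cells with 0 UMIs, 239 CPM in the 451 cells with 1, 251 CPM in the 219 cells with 2 to 4, and 2698 CPM in the 233 cells with 5 or more.

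The step was seen in every replicate. Cells with 0 UMIs held between 200.3 and 252 CPM in the 6 replicates, and cells with 5 or more held 2374, 2532 and 3453 CPM in Empty vector h1, h7 and h8 and 3193, 2066 and 2483 CPM in Bmal1 WT h3, h5 and h9. The lowest replicate with 5 or more thus lay above the highest replicate with 0, 1 or 2 to 4 UMIs. It was present in each immune class as well: 197 against 2734 CPM in T-cell-like, 263 against 2433 in NK-cell-like, 231 against 2957 in macrophage- or monocyte-like and 213 against 2806 in dendritic-cell-like cells.

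The level in cells without Mki67 or Top2a UMIs thus lay between 197 and 263 CPM in the 4 classes, and the share of cells with 5 or more UMIs ran from 1.11% of macrophage- or monocyte-like to 8.33% of T-cell-like cells. The 233 immune cells with 5 or more UMIs were 4.93% of the immune cells and held 13.8% of their UMIs, but 65.0% of their histone UMIs. The 48 immune cells with the most histone UMIs held 41.3% of them. The cells with 5 or more were also deeper, with a median of 18657 UMIs against 5144. With cells thinned to 3000 UMIs and sorted anew by the thinned Mki67 and Top2a counts, the levels were 234, 352, 1472 and 3965 CPM in 3163, 270, 123 and 95 cells. The rise then began at 1 UMI and was gradual. Cells with 5 or more UMIs before thinning could fall to a lower count, so these are not the same sets of cells.

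**Figure D2:**
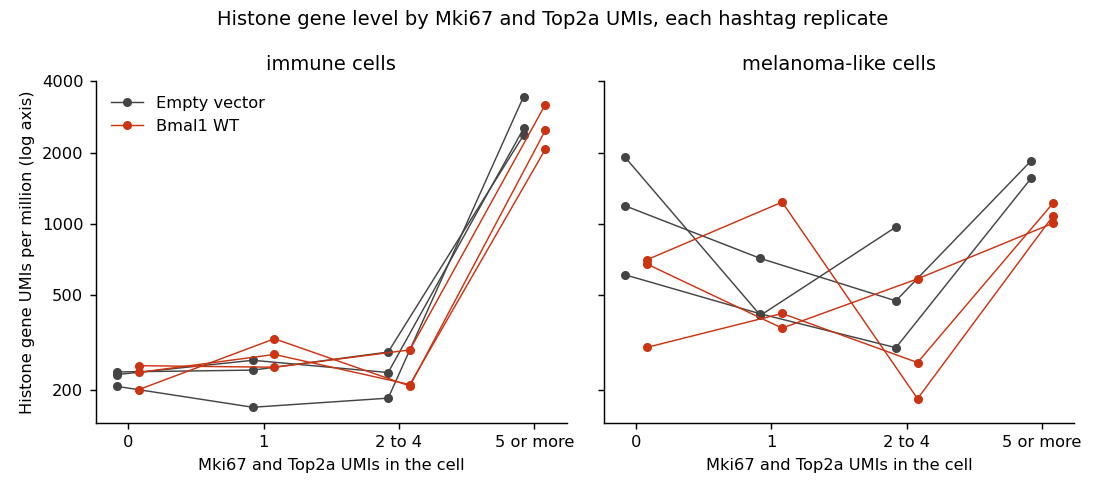
Summed level of the 67 histone genes (CPM, log axis) in cells with 0, 1, 2 to 4 and 5 or more Mki67 and Top2a UMIs, one line for each hashtag replicate (Empty vector grey, Bmal1 WT red). In immune cells the replicates lie at 328 CPM or below up to 4 UMIs and at 2066 CPM or above at 5 or more, and in melanoma-like cells the lines cross.

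In melanoma-like cells the relation took another form. The level was 672 CPM in the 367 cells with 0 UMIs, 489 CPM in the 65 cells with 1, 422 CPM in the 53 cells with 2 to 4 and 1333 CPM in the 86 cells with 5 or more. Cells with 0 UMIs ranged from 301 CPM in Bmal1 WT h3 to 1915 CPM in Empty vector h7, which had 3 such cells. Hist1h2bc accounted for 298 of the 672 CPM in cells with 0 UMIs, and stood at 192 CPM in cells with 5 or more.

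Single genes behaved differently along the same counts. In immune cells, Hist1h2ap went from 6.56 CPM at 0 UMIs to 946 CPM at 5 or more, Hist1h1b from 1.81 to 311, Hist1h2ae from 2.62 to 259 and Hist1h3c from 0.386 to 78.0. Hist1h1e went from 19.9 to 154 CPM and Hist1h4d from 10.8 to 115 CPM. Hist1h1c stayed between 57.1 and 86.9 CPM over the 4 counts, and Hist3h2a went from 17.9 to 9.41 CPM. Linker histone genes were accordingly 50.3% of the histone UMIs in immune cells without a Mki67 or Top2a UMI and 25.4% in those with one, and H2A genes 17.3% and 49.2%.

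Across cells, the rank correlation of histone UMIs with the summed Mki67 and Top2a UMIs was 0.243 in the 3334 Empty vector and 0.342 in the 1388 Bmal1 WT immune cells. Cells of a library share its depth range, and the histone UMIs correlated with the total UMIs at 0.462 and 0.524. In cells thinned to 3000 UMIs the correlations were 0.175 and 0.323. Hist1h1b had the highest values among the 12 most abundant genes (0.348 and 0.496), and Hist3h2a the lowest (0.0338 and 0.00784).

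Immune cells with a Mki67 or Top2a UMI were tested against those with neither, within the 6 replicates (814 and 3380 cells). Of 28 histone genes tested, 24 were higher and 1 lower in the cells with such a UMI (edgeR, adjusted p under 0.05), against 41.0% of all genes called, 22.4% higher and 18.6% lower. Some of the 28 reached the minimum of 100 UMIs only through the cells with a Mki67 or Top2a UMI, as Hist1h2ab (307 UMIs there and 5 in the others), Hist1h3c (397 and 9) and Hist1h2bj (138 and 11), and such genes had to differ, so the count says nothing about the genes as a whole. Hist1h2ab had 10.2 to 37.9 CPM in the 6 replicates with and 0 to 0.677 CPM without. The cells with and without did not overlap (6.73 ± 0.41 on the log2 scale, edgeR adjusted p = 7.6e-07).

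Hist1h2ap had the smallest p. It stood at 301, 445 and 501 CPM in Empty vector h1, h7 and h8 and at 512, 431 and 381 CPM in Bmal1 WT h3, h5 and h9, against 4.85 to 9.37 CPM in the other cells (log2 fold change 6.01 ± 0.11, edgeR adjusted p = 3.2e-10). Hist1h3c (6.40 ± 0.30), Hist1h1b (6.20 ± 0.17) and Hist1h2ae (5.38 ± 0.25) were higher in 6 of 6 replicates, again without overlap. These 5 genes hold H2A, H3 and H1 members, and the highest H2B gene was Hist1h2bj (4.63 ± 0.36) and the highest H4 gene Hist1h4h (2.89 ± 0.23). Of the genes named here, Hist1h2ap alone had at least 100 UMIs in both sets of cells (4688 and 152). The others passed the filter only through the cells with a Mki67 or Top2a UMI, as Hist1h1b (1571 and 43) and Hist1h2ae (1314 and 62). For them the filter favoured a rise, and the lack of overlap is no separate support.

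Hist3h2a was the gene that fell (-0.68 ± 0.22, edgeR adjusted p = 0.030), and was lower in 6 of 6 replicates, at a median of 11.5 against 17.7 CPM. The genes not called were Hist1h1c, Hist1h2bc and Hist2h2be. Hist1h1c stood at a median of 80.0 against 86.0 CPM (log2 fold change -0.22 ± 0.14), Hist1h2bc at 22.9 against 12.2 CPM (0.50 ± 0.20), and Hist2h2be had a log2 fold change of 0.34 ± 0.28. Between these and the genes above lay Hist1h1d (2.52 ± 0.15), Hist1h4d (2.35 ± 0.18), Hist1h1e (1.93 ± 0.15) and Hist1h4i (1.59 ± 0.22), all higher. When only immune cells with 1 to 4 Mki67 and Top2a UMIs were set against those with 0, 0 of 14 genes were called (1 at an unadjusted p under 0.05), and with 5 or more UMIs 25 of 27 were, settings chosen after the data were seen. The share of all genes called in these settings is not given, so the counts are no result about the histone genes as a whole.

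**Figure D3:**
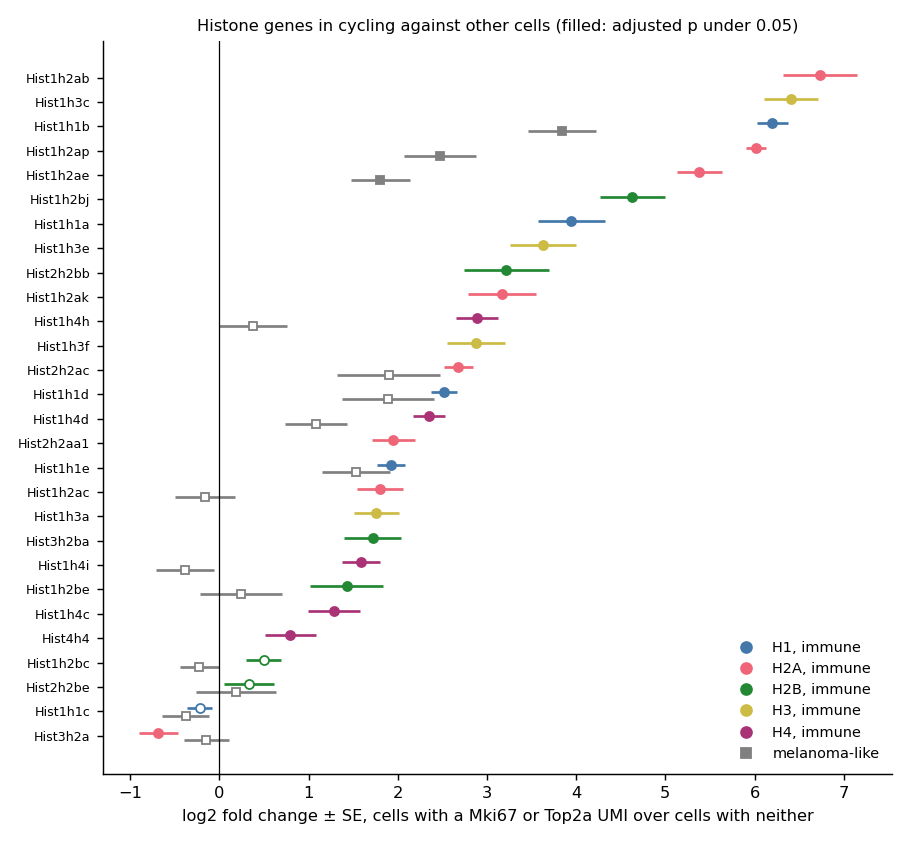
Log2 fold change ± SE of each tested histone gene in cells with a Mki67 or Top2a UMI over cells with neither, for immune cells (circles, coloured by class, 28 genes) and melanoma-like cells (grey squares, 15 of the 16 genes tested there, without Hist2h3c2, which was not tested in immune cells), filled where adjusted p was under 0.05. In immune cells the values run from -0.68 for Hist3h2a to 6.73 for Hist1h2ab, and the melanoma-like values of the called genes lie between 1.81 and 3.84.

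Melanoma-like cells gave a smaller set. Of 16 genes tested in the 5 replicates with at least 5 cells on each side, 3 were higher and 0 lower, against 2.67% of all genes called, 2.43% higher and 0.24% lower (edgeR, adjusted p under 0.05). Empty vector h7 did not enter. Hist1h1b had 5.68 to 89.9 CPM in cells with and 0.916 to 7.88 CPM in cells without a Mki67 or Top2a UMI (3.84 ± 0.38), and was higher in 5 of 5 replicates. Hist1h2ap (2.48 ± 0.40) and Hist1h2ae (1.81 ± 0.33) were the others. All 3 passed the filter only through the cells with a Mki67 or Top2a UMI. Hist1h1b had 311 UMIs there and 9 in the others, Hist1h2ap 823 and 68, and Hist1h2ae 344 and 55. For them the filter favoured a rise, so the count of 3 says nothing about the histone genes as a whole. The rise of Hist1h1b in 5 of 5 replicates is no separate support. Hist1h2bc, the most abundant histone gene there, had a log2 fold change of -0.22 ± 0.22 and was higher in 3 of 5 replicates, and Hist1h1c had -0.38 ± 0.26. Of the genes tested, 7 had an unadjusted p under 0.05, all of them higher, as had 1264 of all 8739 genes in either direction.

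Genes that act on the histone messengers and proteins were counted in the same immune comparison. The list of histone pre-mRNA processing and transcription genes, which holds Slbp for the stem-loop binding protein and Npat for the coactivator of histone genes, had 13 of 14 tested genes higher, with a median log2 fold change of 0.67. Slbp rose by 0.88 ± 0.12 and Npat by 0.76 ± 0.14 on the log2 scale. Of 14 histone chaperone genes, 12 were higher and 1 lower, led by Asf1b (4.28 ± 0.16) and Chaf1a (3.50 ± 0.16), which deliver new histones to replicated DNA. Of 10 tested genes of the list named replication-independent histone genes, 5 were higher, among them H2afx (2.43 ± 0.16) and H2afz (1.06 ± 0.10), and 2 lower. Whether each gene of that list is independent of replication was not tested. Their median was 0.59, against 0.06 over all genes. Of 20 S phase genes 20 were higher, and of 20 G2 and M phase genes 20.

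Cycling immune cells were also split by whether UMIs of the S phase list or of the G2 and M phase list were more numerous. Of 20 histone genes tested, 0 were higher and 16 lower in the 594 S-leaning than in the 147 G2 and M-leaning cells (edgeR, adjusted p under 0.05), against 3.85% of all genes called, 1.02% higher and 2.83% lower. Of the 20 S phase genes 7 were higher in S-leaning cells (median 0.30), and of the 20 G2 and M phase genes 20 were lower (-2.59). UMIs of the S phase list averaged 17.8, 26.6, 20.4, 28.9, 45.1 and 26.2 per S-leaning cell in h1, h7, h8, h3, h5 and h9. In G2 and M-leaning cells they averaged 25.5, 23.7, 32.4, 25.7, 36.05 and 29.4. The split thus parts cells mainly by G2 and M phase genes, and does not compare S phase with G2 and M. Hist1h3c stood at 11.1, 15.1 and 12.3 CPM in the S-leaning cells of Empty vector h1, h7 and h8 and at 14.6, 40.8 and 15.3 CPM in Bmal1 WT h3, h5 and h9. In the G2 and M-leaning cells it stood at 32.9, 158 and 153 CPM and at 117, 46.4 and 83.3 CPM, higher in 6 of 6 replicates (log2 fold change -2.40 ± 0.40).

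Of the other called genes, Hist1h2ab (-2.39 ± 0.43), Hist1h3e (-2.27 ± 0.42), Hist1h3f (-2.25 ± 0.43) and Hist1h4h (-2.11 ± 0.44) had the largest falls. Hist1h1c, which did not differ by call between cells with and without a Mki67 or Top2a UMI, was lower in S-leaning cells too (-1.09 ± 0.18). The S-leaning cells carried fewer Mki67 and Top2a UMIs, a mean of 3.78 to 13.3 per cell over the replicates against 18.6 to 39.2, and its part in the difference was tested only in part. Among cells with at least 3 such UMIs (165 and 106 cells) 3 of 18 genes were called, all lower, and 15 had an unadjusted p under 0.05, and among cells with at least 5 UMIs of the S and of the G2 and M lists together 10 of 19 were. Both settings were chosen after the data were seen, and the share of all genes called in them is not given. Leaving out Bmal1 WT h3 left 7 called, Empty vector h8 9, and Empty vector h1 or h7 10.

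The genes were then set beside their annotated transcript ends, a property the comparison did not use. Of the 21 genes with a stem-loop and at most 100 annotated bases after it, 8 passed the filter in the immune comparison of cells with and without a Mki67 or Top2a UMI, with log2 fold changes from 1.76 to 6.73. Of the 22 with a stem-loop and a longer annotated end, 14 passed, with values from -0.68 to 5.38. Of the 15 genes annotated to the stop codon 3 passed (3.17 to 6.20), and of the 9 with a longer end and no match 3 passed (0.34 to 3.95). The genes that did not pass are left out, and sparse genes with short ends passed through the cells where they are high, so these values do not compare the kinds of transcript end.

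The 4 tested genes with the smallest values bear long ends: Hist3h2a 1703 bases, Hist1h1c 883, Hist2h2be 2195 and Hist1h2bc 745, the last joined from 2 exons. Long ends were not confined to these 4 genes. Hist1h1d has 4934 annotated bases and a log2 fold change of 2.52, and Hist1h1e with 1212 and Hist1h4d with 825 bases were called higher too. Of the 14 tested genes with a stem-loop and over 100 bases after it, 12 were called higher and 1 lower. The number of UMIs had a rank correlation of 0.46 with this length over the 67 genes, which share the same cells and libraries. A run of at least 10 A is present in 4 annotated transcripts, Hist1h2ap (12 bases) and Hist1h2ac (15 bases) among them, and AATAAA, the letters of the common polyadenylation signal, within the last 50 bases of 12.

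**Figure D4:**
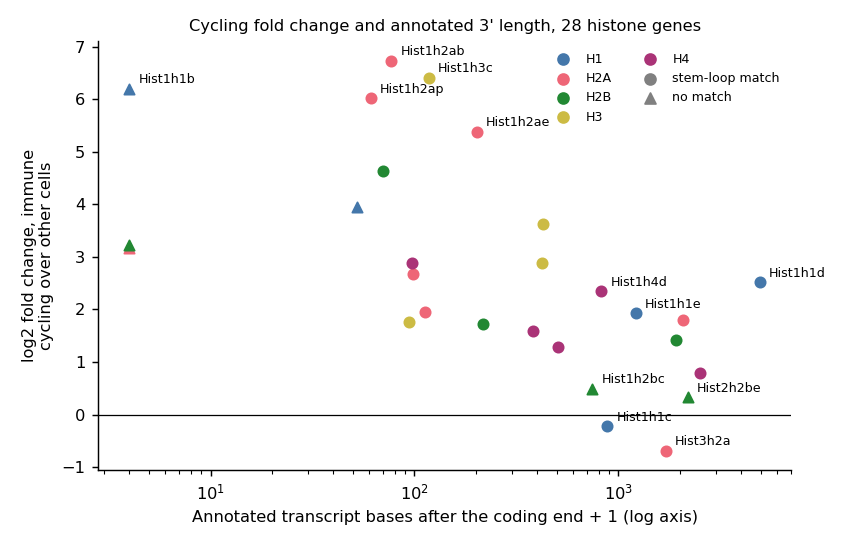
Log2 fold change in immune cells with over those without a Mki67 or Top2a UMI, against the annotated bases after the coding end plus 1 (log axis), for the 28 tested histone genes, coloured by class and with triangles for genes without a stem-loop match. Some genes with short annotated ends, such as Hist1h2ap (60 bases), lie at the top, and Hist3h2a, Hist1h1c, Hist2h2be and Hist1h2bc at the bottom right. Others with long ends, such as Hist1h1d (4934 bases), Hist1h1e (1212) and Hist1h4d (825), lie between. Genes that did not pass the filter are not shown.

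The groups were compared to ask whether wild-type Bmal1 went with a different level of these genes. In immune cells the summed level was 411, 534 and 552 CPM in Empty vector h1, h7 and h8 and 760, 759 and 605 CPM in Bmal1 WT h3, h5 and h9. The means were 499 ± 76.4 and 708 ± 89.4 CPM (SD, n = 3), and the groups did not overlap. In melanoma-like cells the values were 1135, 682 and 829 CPM against 756, 689 and 819 CPM, and they overlapped.

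Of 28 genes tested in immune cells, 3 were higher and 0 lower in Bmal1 WT (edgeR, adjusted p under 0.05), against 4.94% of all genes called (1.93% higher and 3.01% lower). Higher genes were 39.0% of all calls, and 67.0% with TMM and 68.6% with DESeq2 scaling, under which 3 and 7 histone genes were higher and 0 lower. Hist1h1a had 1.22, 2.58 and 2.11 CPM in Empty vector and 7.05, 8.79 and 5.26 CPM in Bmal1 WT (log2 fold change 1.90 ± 0.35, edgeR adjusted p = 0.040). Hist1h1d, another linker histone gene, had 11.4, 9.25 and 11.9 against 19.2, 18.4 and 24.3 CPM (0.90 ± 0.17). Hist1h4d had 14.5, 22.8 and 22.3 against 36.0, 42.1 and 36.4 CPM (0.95 ± 0.19). None of the 3 overlapped between the groups, but they were picked by the call on the same replicates, so this adds nothing to the call. Without the Bmal1 WT cells Hist1h1a would not have passed the gene filter, so for it the filter favoured a rise.

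Altogether 15 of the 28 genes had an unadjusted p under 0.05, all higher in Bmal1 WT, as had 2890 of all 10586 genes in either direction, and the median over the 28 was 0.61 against -0.09 over all genes tested. The most abundant genes divided: Hist1h2ap (0.51 ± 0.21), Hist1h2ae (0.94 ± 0.36) and Hist1h1b (1.07 ± 0.26) had positive fold changes and Hist1h1c (-0.34 ± 0.16) and Hist3h2a (-0.20 ± 0.13) negative ones, none of them called. Without any 1 of the 6 replicates 0 genes were called, so the 3 calls rest on all of the replicates.

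The share of cells with 5 or more Mki67 and Top2a UMIs moved with the groups. Without thinning, the share with 5 or more was 2.76%, 4.49% and 3.72% of the immune cells in Empty vector h1, h7 and h8 and 8.45%, 10.4% and 7.69% in Bmal1 WT h3, h5 and h9 (two-sided exact permutation p = 0.10, the smallest that 3 against 3 replicates can give, 0.20 after Benjamini-Hochberg adjustment over 6 classes). Of the 20 G2 and M phase genes tested, 13 were higher in Bmal1 WT, as Ube2c (1.25 ± 0.19) and Cenpf (1.32 ± 0.26), and of the 20 S phase genes 1, Exo1. Mki67 itself rose by 1.26 ± 0.14 on the log2 scale. Of the 10 tested genes listed as replication-independent histone genes 1 was higher, H2afx (1.01 ± 0.17), of the 14 processing genes 1, Snrpf, and of the 14 chaperone genes 0.

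Within immune cells split by these UMIs, no histone gene was called. It was 0 of 20 among cells with a Mki67 or Top2a UMI (4 at an unadjusted p under 0.05), 0 of 8 among cells with neither (3) and 0 of 18 among cells with 5 or more (2), the last 2 being settings chosen after the data were seen. These splits hold fewer cells, and fewer histone genes passed the filter. The share of all genes called in them is not given, so 0 calls do not show the groups to be alike. In cells with 5 or more, the fold changes of Hist1h2ap (-0.42), Hist1h2ae (-0.0069), Hist2h2ac (-0.072) and Hist1h3c (-0.092) turned negative. At the same counts the summed levels of Empty vector and Bmal1 WT were 223 and 241 CPM in cells with 0 UMIs and 224 and 266 CPM with 1. They were 241 and 267 CPM with 2 to 4, and 2838 and 2584 CPM with 5 or more. The replicates with 5 or more overlapped, at 2374 to 3453 CPM in Empty vector and 2066 to 3193 CPM in Bmal1 WT. The part of the share of such cells in the group difference was not tested.

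In the single immune classes no histone gene was called. T-cell-like cells had 0 of 17 (background 0.0% of genes called), NK-cell-like 0 of 10 (0.0951%, with 0.0815% higher and 0.0136% lower), macrophage- or monocyte-like 0 of 9 (0.0%) and dendritic-cell-like 0 of 8 (0.0313%). At an unadjusted p under 0.05 there were 3, 4, 6 and 2 histone genes, against 1680 of 8357, 983 of 7363, 1033 of 7211 and 955 of 6383 genes in all. DESeq2 called 0 in each but gave an adjusted p for only 5, 0, 1 and 4 of the histone genes. Without the gene filter 2, 7, 7 and 3 were called, all higher in Bmal1 WT, and with Leiden-cluster classes 1, 1, 0 and 0. The share of all genes called under these alternatives is not given, so their counts are no result about the histone genes as a whole. Hist1h1e in NK-cell-like cells came nearest, at 27.1, 44.4 and 25.5 CPM in Empty vector against 88.7, 65.2 and 56.0 CPM in Bmal1 WT, without overlap (1.20 ± 0.23, edgeR adjusted p = 0.070). In macrophage- or monocyte-like cells Hist1h1b had 8.95, 0 and 4.09 against 24.4, 40.9 and 28.4 CPM (2.46 ± 0.52), from 25, 0 and 8 UMIs in Empty vector. With so few UMIs there it passed the gene filter only through the Bmal1 WT cells, so the filter favoured a rise. In NK-cell-like cells the positive fold change of Hist1h2ap, 0.87 ± 0.64, came from Bmal1 WT h3 (267 CPM, against 31.0 and 9.74 in h5 and h9), and without that replicate it was -1.64.

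In melanoma-like cells 0 of 16 genes were called, with 0.0% of all genes called, and 10 had an unadjusted p under 0.05, 5 of them higher, against 342 of all 8753 genes at that p. DESeq2 called 1, and without the gene filter 3 were called, but the share of all genes called under these alternatives is not given. The genes went both ways. Hist1h1b had 6.52, 0 and 3.61 CPM in Empty vector h1, h7 and h8 and 69.8, 24.0 and 46.0 CPM in Bmal1 WT h3, h5 and h9, without overlap (3.21 ± 0.55, edgeR adjusted p = 0.94). Hist1h2ap had 22.1, 13.4 and 43.8 against 145, 67.0 and 125 CPM (1.82 ± 0.40), and Hist1h1e, Hist2h2ac and Hist1h2ae had 2.22 ± 0.46, 2.06 ± 0.55 and 1.19 ± 0.33. Without the Bmal1 WT cells, Hist1h1b, Hist1h1e, Hist2h2ac and Hist1h2ae would not have passed the gene filter. For them the filter favoured a rise, and the lack of overlap of Hist1h1b is no separate support.

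Hist1h2bc went the other way, from 558, 281 and 257 to 95.2, 255 and 144 CPM (-1.18 ± 0.41), as did Hist1h4i, from 48.6, 26.7 and 29.4 to 14.8, 17.9 and 18.9 CPM (-1.12 ± 0.32). The lowest fold change was that of Hist2h3c2 (-2.33 ± 0.73), where Empty vector h8 held 52.6 CPM and the other 5 replicates at most 9.52. Hist2h3c2 passed the gene filter only through the Empty vector cells, so for it the filter favoured a fall. The melanoma-like sums were small: 35, 6 and 23 cells in Empty vector against 29, 78 and 28 in Bmal1 WT, and 2 cells held 50.2%, 78.4% and 58.3% of the histone UMIs in the Empty vector replicates and 53.2%, 19.8% and 46.0% in the Bmal1 WT replicates. The share of these cells with 5 or more Mki67 and Top2a UMIs was 8.57%, 0.0% and 17.4% against 20.7%, 15.4% and 25.0%. Between the groups, 0 of 12 genes were called among melanoma-like cells with a Mki67 or Top2a UMI (7 at an unadjusted p under 0.05) and 0 of 5 among those with neither (2), the latter a setting chosen after the data were seen. The share of all genes called in these splits is not given, so 0 calls do not show the groups to be alike.

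Barcodes with under 0.5% mitochondrial UMIs were 59 of the Empty vector and 121 of the Bmal1 WT melanoma-like cells, at 946 and 719 CPM of histone UMIs, against 869 and 766 CPM in the others. Leaving them out, 0 of 16 genes were called.

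**Figure D5:**
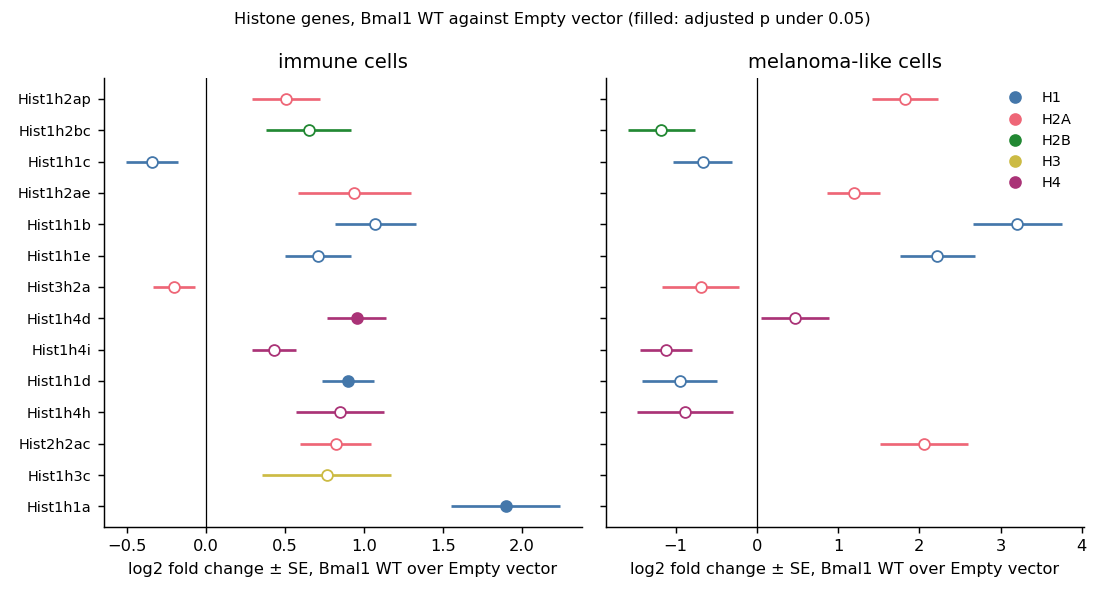
Log2 fold change ± SE of Bmal1 WT over Empty vector for the 12 most abundant histone genes, Hist1h3c and Hist1h1a, in immune and melanoma-like cells, coloured by class and filled where adjusted p was under 0.05. In immune cells Hist1h4d, Hist1h1d and Hist1h1a are filled, and in melanoma-like cells the values run from -1.18 for Hist1h2bc to 3.21 for Hist1h1b with none filled.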

How the data were processed

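Per the labels, single cells were captured with a 10x 3' kit (version 3.1). The deposited matrices hold UMI counts per gene and barcode, made by the authors with Cell Ranger 6.1.2 per the file headers, against mm10 per the submitters' processing notes. The handling of strand and of reads with several matches was not stated. For the Bmal1 bHLH genotype, 3 of its 3 files held the same values as the Bmal1 WT files, so it was not analysed. Cells with at least 200 genes and at most 20% mitochondrial UMIs were kept. Scrublet, through scanpy 1.11.5, called only 2 and 3 cells, so it had not worked and no doublet was removed.

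Hashtag replicates were set by a Gaussian mixture (scikit-learn 1.9.0), and only cells with 1 hashtag (3222 and 1621) entered tests. A cell took the class with the largest share of its 8 markers detected, with at least 2 and no tie. The libraries shared 3 kept barcodes. UMIs were summed per replicate and class, scaled by total UMIs, and tested with edgeR 4.0.16 (quasi-likelihood) in R 4.3.3 over genes with at least 100 UMIs, with Benjamini-Hochberg adjustment over all genes tested and a threshold of 0.05. Comparisons within replicates had a replicate block, since both sums of a hashtag come from the same replicate. Hashtags mark samples of 1 channel, and nothing says they were separate animals or cultures, so p-values measure the spread between these samples. The scripts were tested on simulated counts.

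Named were the 12 genes with most UMIs and, in each comparison, called genes (all if 10 or fewer, otherwise the 5 largest changes in each direction), with up to 4 examples of each list. The genes and lists were chosen with earlier results of these data known. DESeq2 1.42.0, TMM, gene and cell filters, gates, hashtag calls, Leiden clusters, splits of cells and left-out replicates were tried as alternatives.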

Additional observations from a re-analysis of the deposited data

How the results depend on the processing

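Of 187 alternatives for the counts of histone genes called, 150 stayed within 1.5 times the reported count, and of 2265 for the named genes 2057 kept direction and call, 118 lost a call, 57 gained one and 33 changed sign. The cause of these changes was not tested except where fewer cells or genes entered. Depth limits the melanoma-like sums and the sparse genes, and group and channel cannot be told apart. The share of all genes called is not given for the alternatives below, so their counts are no result about the histone genes as a whole.

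Without a gene filter the called counts were 3 for Bmal1 WT against Empty vector in melanoma-like, 2 in T-cell-like, 7 in NK-cell-like, 7 in macrophage- or monocyte-like and 3 in dendritic-cell-like cells, 44 and 8 for cells with against without a Mki67 or Top2a UMI in immune and melanoma-like cells, and 29 for S-leaning against G2 and M-leaning cells. DESeq2 called 1 in melanoma-like and 7 in immune cells between the groups. DESeq2 gave no adjusted p for most histone genes of the single immune classes. Hashtags by highest centred log count gave 5 between groups in immune cells and 7 for the melanoma-like split. Leiden-cluster classes gave 1 in T-cell-like and 1 in NK-cell-like cells. Between groups in immune cells, 0 were called in cells with a Mki67 or Top2a UMI and, in settings chosen after the data were seen, 0 with neither and 0 with 5 or more. A split at 2 UMIs gave 5 in melanoma-like cells. Chosen after the data were seen, 1 to 4 UMIs gave 0 in both classes, and S-leaning against G2 and M-leaning cells gave 3 with at least 3 Mki67 and Top2a UMIs and 10 with at least 5 list UMIs. Thinning to 3000 UMIs left 20 in place of 43 genes found in at least 1% of cells, and the immune cells with 5 or more UMIs after thinning stood at 3965 CPM. Scaling also moved the share of higher calls over all genes, from 39.0% to 67.0% (TMM) and 68.6% (DESeq2) between groups in immune cells, and from 64.1% to 49.9% and 48.6% for lymphoid against myeloid cells.

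With 1 replicate left out, the counts between groups were 0 in immune and 0 to 1 in NK-cell-like cells, 19 to 21 and 2 to 3 for the Mki67 and Top2a split, 7 to 17 for S-leaning cells, 11 to 20 for melanoma-like against immune cells (11 without Empty vector h8) and 13 to 22 for lymphoid against myeloid cells (13 without Bmal1 WT h3). Without the replicate block the within-replicate counts were 25, 3, 18, 17 and 19 in the same order, against 25, 3, 16, 21 and 21 with it, all within 1.5 times. The groups share no replicate number, so between them no paired fit was possible.

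The log2 fold changes that changed sign were not called. With 1 replicate left out, the ranges between groups were -0.95 to 0.10 (Hist3h2a) and -1.47 to 0.78 (Hist1h4h) in melanoma-like, -0.40 to 0.17 (Hist3h2a) in T-cell-like, -0.55 to 0.21 (Hist1h1c), -1.64 to 1.67 (Hist1h2ap) and -0.20 to 2.36 (Hist1h1b) in NK-cell-like, -0.19 to 0.13 (Hist3h2a) in macrophage- or monocyte-like, and -0.82 to 1.54 (Hist1h2ap) and -0.56 to 0.49 (Hist1h2bc) in dendritic-cell-like cells. For Hist3h2a they were -0.43 to 0.020 in the melanoma-like Mki67 and Top2a split and -0.41 to 0.0078 in S-leaning cells. In cells with 5 or more UMIs the immune values were -0.42 (Hist1h2ap), -0.0069 (Hist1h2ae), -0.072 (Hist2h2ac) and -0.092 (Hist1h3c). Leiden classes gave -0.029 (Hist1h2bc, T-cell-like), 0.12 (Hist3h2a, macrophage- or monocyte-like), 0.22 (Hist1h2ap, dendritic-cell-like), -0.12 (Hist1h4h, melanoma-like split) and 0.0072 (Hist3h2a, S-leaning). For Hist3h2a in macrophage- or monocyte-like cells TMM gave 0.0011, leaving out high Scrublet scores 0.0165, the other hashtag call 0.027 and cells with neither UMI 0.046. The other hashtag call gave 0.072 (Hist1h2ap, dendritic-cell-like) and 0.16 (Hist1h1c, melanoma-like split). Hist1h1c was at 0.20 in melanoma-like cells with neither UMI and 0.0014 in T-cell-like cells with one. With 1 to 4 UMIs Hist1h2bc was at -0.051 in immune and Hist1h4h at -0.62 in melanoma-like cells.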
